A study of Mus musculus with 36 samples.

Results

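The kinesin motor genes are described here across juvenile mouse testes that carried 1 of 2 altered alleles of Brdt. Members were all genes whose annotated symbol is Kif followed by a digit, together with Klc1 to Klc4. A member was measured if it had a probe detected (detection p under 0.01) on all 6 arrays of at least 1 group. Of 35 such symbols with a named probe, 28 were measured, among 11529 genes tested in all. The 28 genes were sorted by known role into 5 genes of the cilium and flagellum, 11 of the spindle and cytokinesis, and 12 of cargo transport. Klc2 and Klc3 were not among the symbols with a named probe.

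Kinesins are motor proteins that use ATP to move along microtubules or to take them apart from their ends. Most walk toward the plus end with vesicles, organelles or chromosomes, kinesin light chains couple kinesin-1 to its cargo, and kinesin-2 carries intraflagellar transport trains out along a growing cilium. In the testis such motors act on the spindles of dividing spermatocytes and later on the manchette and flagellum of spermatids. Brdt is a testis-specific member of the BET family, whose first bromodomain (BD1) binds acetylated histone H4.

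RNA of whole testis was hybridised to Illumina bead arrays, 6 arrays per group. All animals carry the strain label C57BL/6. The knockout line gave 4 knockout animals (Brdt KO-/-) and 6 heterozygous animals (KO+/-) at 17 days post partum (dpp), and 4 knockout and 3 wild-type animals (KO+/+) at 20 dpp. A second line gave 3 animals homozygous for a deletion of BD1 (BD1-/-) at 20 dpp and 4 controls, of which animals 219 and 191 were BD1+/- and animals 195 and 196 were BD1+/+. The controls at 17 dpp thus carried 1 knockout allele, and those of the same line at 20 dpp carried none. Nothing in the labels names a driver, a cell type or a time of deletion for either allele. The 36 arrays came from 24 animals, since several animals had more than 1 array. Those arrays were averaged per animal, and n is the number of animals. Knockout animals 148 and 152 and all 3 wild-type animals at 20 dpp came from litter 1, and knockout animals 139 and 140 from litter 2.

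Levels are normalized log2 signals, on which a difference of 1 is a doubling, and differences are given with their standard error (SE). A gene was called when its limma p, adjusted by the Benjamini-Hochberg method over 11529 genes, was under 0.05. Brdt itself averaged 6.10 ± 0.64 in knockout and 9.00 ± 0.37 in heterozygous testes at 17 dpp (SD, n = 4 and 6), and 7.82 ± 0.52 in knockout and 11.5 ± 0.089 in wild-type testes at 20 dpp (SD, n = 4 and 3). In the BD1 line its probe averaged 10.3 ± 0.16 in deletion and 11.4 ± 0.43 in control testes (SD, n = 3 and 4), and where that probe lies relative to the deleted sequence was not analysed here. Array medians of the deposited signal lay between 118.3 and 152.9, and 17379 to 20016 of 45281 probes were detected per array. The number of arrays and animals limits the precision of each value.

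Promoter sequences of the 8 kinesin genes called lower in the 20 dpp knockout and the 7 called higher were set beside each other, since these genes moved together in either direction. Of the 28 genes, 26 had an entry in the RefSeq promoter table (assembly GRCm38.p6), which was read for the 250 bases before each start. The first 3 sequences below are those of Kif2b (chr11:91577556-91577805, minus strand), Kif27 (chr13:58354948-58355197, minus strand) and Kif3b (chr2:153291166-153291415, plus strand), which were lower, with Kif9 (chr9:110476744-110476993, plus strand) after them. Kif9 had another window (chr9:110476708-110476957), not printed here, with 0 matches to the searched motifs. The last pair, Kif5c (chr2:49619036-49619285, plus strand) and Klc1 (chr12:111758618-111758867, plus strand), was higher. Capitals mark the letters of a searched motif on either strand.
Kif2b: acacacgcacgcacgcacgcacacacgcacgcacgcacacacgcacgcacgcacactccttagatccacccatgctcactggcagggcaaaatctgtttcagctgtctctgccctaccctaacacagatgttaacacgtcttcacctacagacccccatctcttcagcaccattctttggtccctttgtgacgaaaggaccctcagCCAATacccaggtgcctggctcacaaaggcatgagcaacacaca
Kif27: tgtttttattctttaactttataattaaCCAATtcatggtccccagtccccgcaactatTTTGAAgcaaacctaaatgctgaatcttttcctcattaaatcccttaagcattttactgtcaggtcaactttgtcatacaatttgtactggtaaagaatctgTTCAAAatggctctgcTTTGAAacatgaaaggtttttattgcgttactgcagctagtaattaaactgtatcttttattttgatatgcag
Kif3b: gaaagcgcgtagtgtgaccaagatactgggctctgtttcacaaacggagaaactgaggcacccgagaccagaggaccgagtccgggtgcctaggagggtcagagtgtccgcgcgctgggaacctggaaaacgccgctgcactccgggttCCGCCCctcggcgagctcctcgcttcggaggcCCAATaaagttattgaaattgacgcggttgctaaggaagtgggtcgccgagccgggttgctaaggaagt
Kif9: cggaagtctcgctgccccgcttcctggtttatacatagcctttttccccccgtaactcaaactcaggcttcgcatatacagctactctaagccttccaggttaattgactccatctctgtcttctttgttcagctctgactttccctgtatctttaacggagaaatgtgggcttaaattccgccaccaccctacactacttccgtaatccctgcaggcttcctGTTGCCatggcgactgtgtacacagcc
Kif5c: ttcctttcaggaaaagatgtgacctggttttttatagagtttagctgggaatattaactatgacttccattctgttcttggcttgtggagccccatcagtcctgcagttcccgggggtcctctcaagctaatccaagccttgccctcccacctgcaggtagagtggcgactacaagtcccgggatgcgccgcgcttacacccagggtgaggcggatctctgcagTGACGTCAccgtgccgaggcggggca
Klc1: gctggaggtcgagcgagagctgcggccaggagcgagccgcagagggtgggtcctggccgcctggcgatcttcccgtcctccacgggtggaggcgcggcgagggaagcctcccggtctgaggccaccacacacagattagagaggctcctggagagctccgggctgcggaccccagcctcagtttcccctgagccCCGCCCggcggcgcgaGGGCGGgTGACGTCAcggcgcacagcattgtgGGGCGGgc

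The motifs searched on both strands were the CCAAT box (CCAAT), the cAMP response element (TGACGTCA), the GC box (GGGCGG), the core of the RFX site (GTTGCC), the core of the cell cycle homology region (TTTGAA) and the MYB core (CAGTTG), and matches to different motifs can overlap. CCAAT stood in 6 of the 8 genes lower in the knockout, in 1 of the 7 higher and in 12 of the 26 in all, against 33.8% of 32851 promoters of the same length. The cAMP response element was found in Kif5c and Klc1, 2 of the 7 genes higher, and in 0 of the 8 lower, against 1.55% of all promoters. GTTGCC was present in 4 of the 8 lower, in 2 of the 7 higher and in 7 of the 26, against 10.4%. GGGCGG was present in 17 of the 26 genes, against 32.7% of promoters, TTTGAA in 6, against 15.99%, and CAGTTG in 0, against 11.1%. With the highest window value taken per gene, the 26 kinesin genes had a median GC content of 63.2% and a median of 22 CpG dinucleotides. The medians over all promoter windows were 52.4% and 6, without that choice, so both sets of values were not taken alike. These motif matches describe letters in a window, and genes with more than 1 annotated start had more than 1 window. A gene was counted if any of its windows held the motif, whereas the percentages count single windows.

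At 20 dpp all 5 cilium and flagellum genes were lower in knockout than in wild-type testes, 5 of 12 cargo transport genes were higher and 1 was lower, and of 11 spindle genes 2 were higher and 2 lower. Roles were assigned with earlier results of these data known, so this split is a description. Kif3c, a kinesin-2 motor like Kif3a and Kif3b, was called higher and was sorted under cargo transport. In all, 15 of the 28 were called (53.6%), 7 higher and 8 lower, where 60.1% of all genes were called, 39.4% higher and 20.7% lower. The overall share of called kinesin genes therefore lay near that of all genes. Without overlap between the animals of both groups were 17 of the 28, where 64.1% of all genes did not overlap. Relative to the median change of all genes in this comparison (0.24), the split was 3 higher and 12 lower, with Kif22, Kif2a, Kif2c and Klc4 added among the lower. The share of all genes called in that centred fit is not given here. The 39.4% and 20.7% above belong to the fit without centring and cannot be set beside this split. All these counts of kinesin genes include Kif2b, which was measured only through the 20 dpp controls, in which it was high. Likewise Kif13a met the detection rule only through the 17 dpp knockout, and Kif5a only through both 17 dpp groups. Whole testis RNA cannot tell fewer cells of a type from less RNA per cell.

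**Figure D1:**
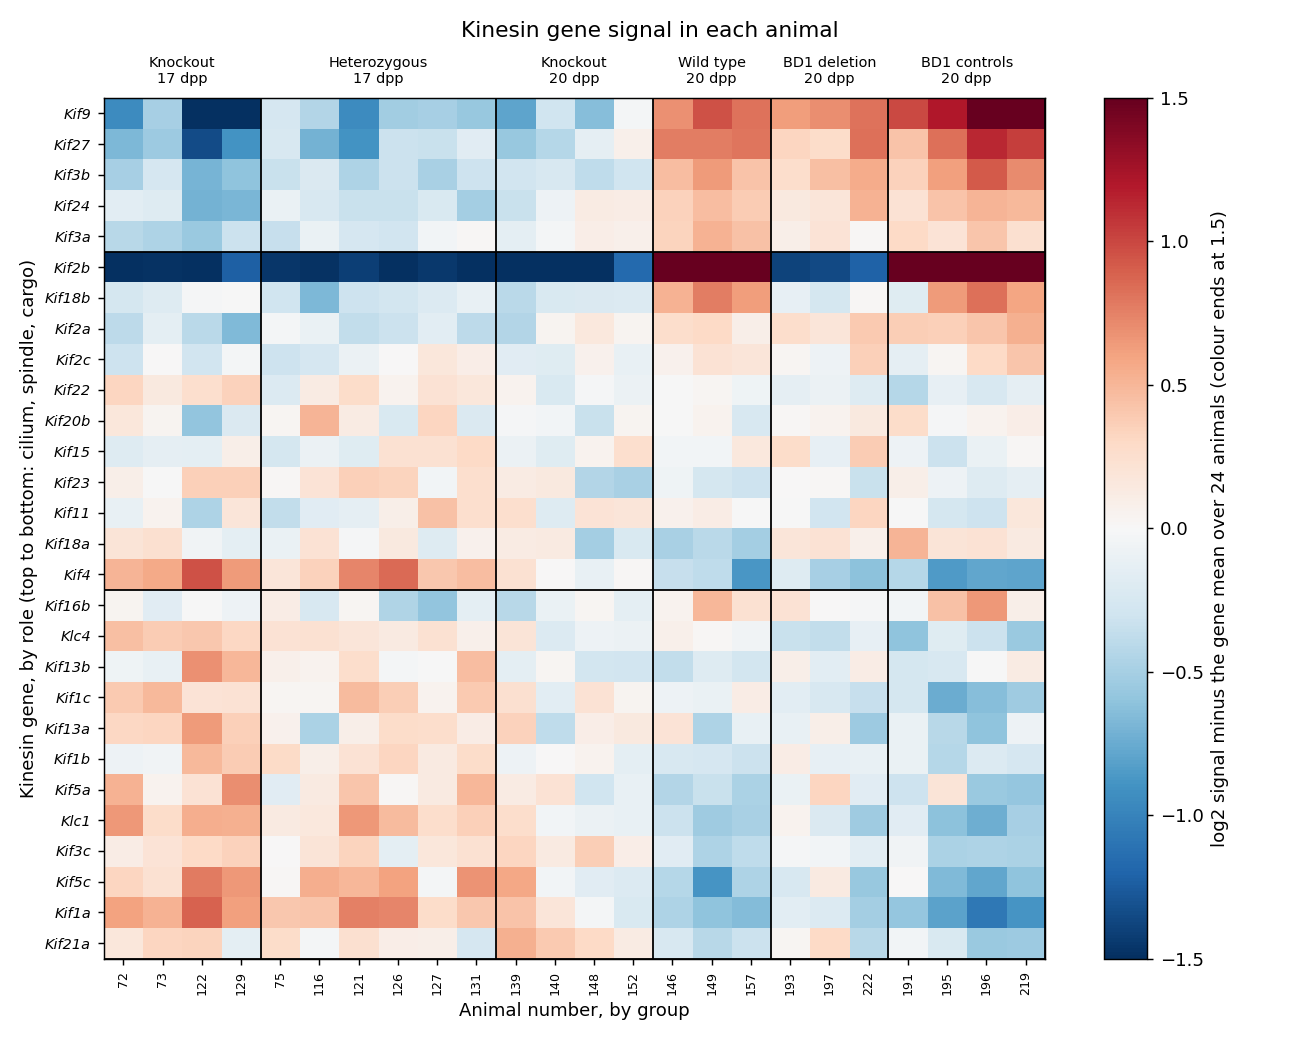
Normalized log2 signal of the 28 kinesin genes (rows, by role and then by their change in the 20 dpp knockout) in each of 24 animals (columns, by group), minus the mean of the gene over all animals, with colours ending at 1.5 either way. The cilium genes and Kif2b were highest in wild-type and BD1 control testes at 20 dpp, and many cargo transport genes were highest at 17 dpp.

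Among the cilium and flagellum genes the widest change was in Kif9, whose product is a motor of the sperm flagellum. Kif9 had 6.56, 7.05, 6.71 and 7.32 in the 4 knockout testes at 20 dpp, against 8.04, 8.30 and 8.16 in the wild-type testes. All knockout animals lay below all wild-type animals, and the difference was -1.26 ± 0.25 (SE, adjusted p = 2.96e-04). At 17 dpp it was detected on 4 of 6 knockout arrays and had 5.37 to 6.84 in knockout testes, against a lowest of 6.40, a median of 6.84 and a highest of 7.10 in heterozygous testes, and the difference did not pass the threshold (-0.69 ± 0.21, adjusted p = 0.0982).

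Kif27, a motor protein needed for motile cilia in mice, had 8.51, 8.66, 8.95 and 9.16 in 20 dpp knockout testes, against 9.86, 9.85 and 9.89 in wild type. The groups did not overlap, and the wild-type animals lay close together (-1.04 ± 0.21, adjusted p = 3.5e-04). Kif3a and Kif3b encode the motor subunits of heterotrimeric kinesin-2, which drives intraflagellar transport outward. Kif3b had 9.22, 9.27, 9.13 and 9.21 in knockout testes, against 9.97, 10.15 and 9.94 in wild-type testes (-0.81 ± 0.12, adjusted p = 1.86e-05). Kif3a had 11.25, 11.37, 11.50 and 11.47 in knockout testes, against 11.73, 11.91 and 11.83 in wild-type testes (-0.43 ± 0.096, adjusted p = 8.7e-04). Neither subunit overlapped between the groups. Kif24, a kinesin-13 relative that acts at the mother centriole, had 7.80 to 8.26 in knockout testes and 8.49 to 8.60 in wild-type testes (-0.44 ± 0.15, adjusted p = 0.0151), a call that was lost without animal 139 (adjusted p = 0.0617) or animal 149 (adjusted p = 0.0548), and with litter as a block (-0.28, adjusted p = 0.0741). Within litter 1 Kif9, Kif27, Kif3b and Kif3a kept their calls, with mean differences of -1.15, -0.81, -0.85 and -0.34.

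Marker genes of other cell types moved in the same comparison. Of 12 round spermatid markers 9 were measured and all 9 were called lower, and their summed log2 level ranged over 8.64 to 8.80 in knockout testes and 12.2 to 13.4 in wild-type testes at 20 dpp. Acrv1, Spaca3, Prm1, Tex36 and Catsper3 were detected on no array of the 20 dpp knockout, and Tssk2, Tnp1 and Izumo1 on 2 of 6. All but Spaca1 were thus measured mainly through the 20 dpp controls, in which they were high, so their calls are a description. In this comparison 20.7% of all genes were called lower and 39.4% higher. The 9 measured spermatocyte markers had 2 called higher and 3 called lower, with a sum of 15.9 to 16.4 in knockout and 16.5 to 16.6 in wild-type testes. The part of these cells in the lower levels of the cilium genes was not tested.

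Among the spindle genes Kif2b, a kinesin-13 that depolymerises microtubules at the kinetochore, was detected on 6 of 6 arrays of wild-type and of BD1 control testes at 20 dpp and on 0 of 6 arrays of each other group. It was thus measured only through the groups in which it was high, and its difference is a description. Kif2b had 4.34, 4.57, 4.63 and 5.01 in the 20 dpp knockout, which is not well above background, against 9.74, 9.82 and 10.79 in wild type. That made it at least 24.6-fold lower in the knockout, where the bound compares the wild-type mean of 10.11 with 5.49, the mean lowest signal of detected probes on the knockout arrays (fit adjusted p = 1.44e-10).

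In the BD1 deletion Kif2b had 4.79, 4.83 and 4.96, against 7.83 in animal 191, 9.24 in animal 219, 10.19 in animal 195 and 10.42 in animal 196 among the controls. It was at least 14.7-fold lower in the deletion (fit adjusted p = 9.3e-09), and both BD1+/- controls lay below both BD1+/+ controls. Animals 195 and 196 came from litter 5, animal 191 from litter 4 and animal 219 from litter 6. Genotype and litter of these controls cannot be told apart. Kif2b was also at background at 17 dpp, with 4.66 to 4.96 in knockout testes and 4.62 to 4.77 in heterozygous testes.

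Kif18b, a kinesin-8 that works at the plus ends of astral microtubules, had 8.29, 8.46, 8.48 and 8.49 in 20 dpp knockout testes, against 9.22, 9.46 and 9.32 in wild-type testes. No animals overlapped (-0.90 ± 0.17, adjusted p = 1.98e-04). Kif18a, a kinesin-8 of chromosome alignment, was called higher by a small margin, with 7.68 to 8.33 in knockout and 7.69 to 7.78 in wild-type testes, which overlapped (0.35 ± 0.15, adjusted p = 0.0453). Kif4, a chromosome-associated motor encoded on chromosome X, had 8.78, 8.55, 8.43 and 8.57 in knockout testes, against 8.21, 8.16 and 7.67 in wild-type testes (0.57 ± 0.17, adjusted p = 0.00625), but not past the threshold without animal 157 (0.40, adjusted p = 0.0677). Within litter 1 alone Kif4 had 0.48 (adjusted p = 0.0624) and Kif18a 0.10 (adjusted p = 0.628), and with litter as a block Kif18a also had 0.10 (adjusted p = 0.595). The Kif18a call was lost without animal 139, 140, 146, 149 or 157 (adjusted p = 0.0703 to 0.147). The other 7 spindle genes, Kif11, Kif15, Kif20b, Kif22, Kif23, Kif2a and Kif2c, had changes between -0.26 and 0.05 and did not pass the threshold.

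**Figure D2:**
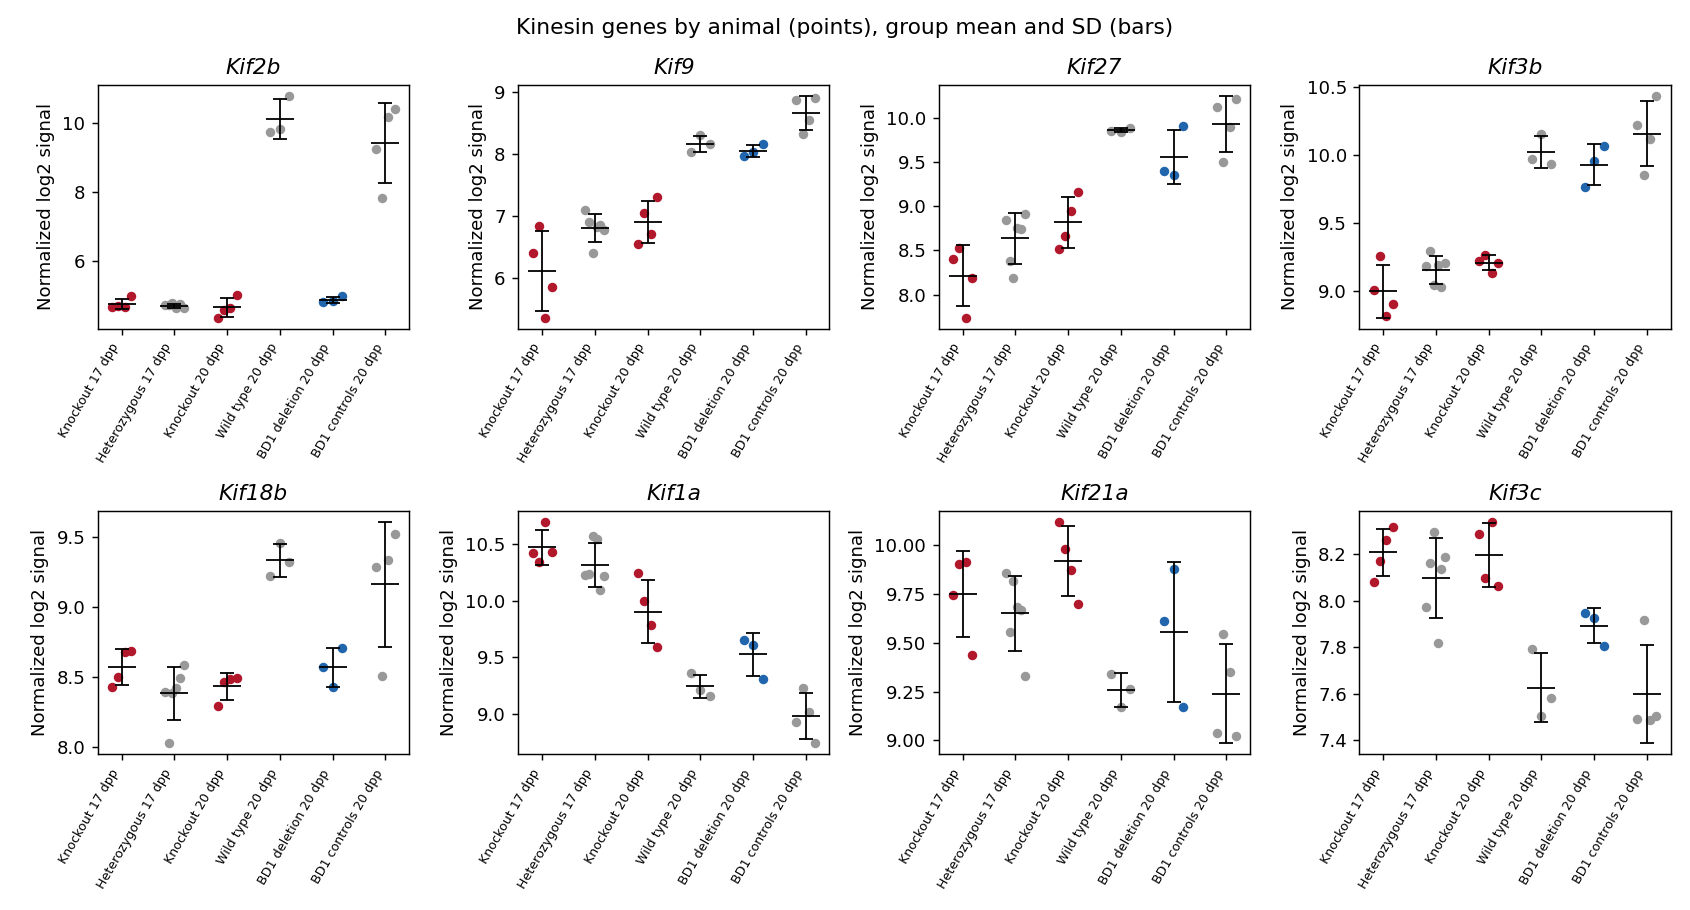
Normalized log2 signal of 8 kinesin genes in each animal (points) by group, with the group mean and SD as bars; each panel has its own vertical scale that does not start at 0. Kif2b stood at 4.34 to 5.01 in every testis except those of wild type and BD1 controls at 20 dpp, and Kif1a, Kif21a and Kif3c were higher in the 20 dpp knockout than in wild type.

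Of the cargo transport genes, Kif1a, known for carrying synaptic vesicle precursors in neurons, had 10.24, 9.999, 9.78 and 9.59 in 20 dpp knockout testes, against 9.36, 9.21 and 9.16 in wild-type testes (0.66 ± 0.15, adjusted p = 9.76e-04). Kif21a, which limits microtubule growth at the cell cortex, had 10.12, 9.98, 9.88 and 9.70 in knockout testes, against 9.34, 9.17 and 9.26 in wild-type testes (0.66 ± 0.17, adjusted p = 0.00199). Kif3c, another kinesin-2 motor that can pair with Kif3b, had 8.29, 8.10, 8.34 and 8.06 in knockout testes, against 7.79, 7.50 and 7.58 in wild-type testes (0.57 ± 0.13, adjusted p = 0.00104). The animals of both groups did not overlap for any of these genes. In Kif1a, Kif21a, Kif18a, Kif5c and Klc1 both knockout animals of litter 2 lay above both of litter 1. Among the genes called lower, both lay below both of litter 1 in Kif27, Kif3a, Kif24 and Kif18b, and at background in Kif2b. Within litter 1 the calls of Kif1a and Kif21a were kept, with mean differences of 0.44 and 0.53.

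Kinesin-1 has heavy chains, of which Kif5a and Kif5c were measured, and light chains, of which Klc1 and Klc4 were measured. Kif5c had 8.08, 7.47, 7.33 and 7.30 in knockout testes, against 7.08, 6.62 and 7.04 in wild-type testes (0.63 ± 0.23, adjusted p = 0.0225). Klc1 had 9.78, 9.48, 9.43 and 9.40 in knockout testes, against 9.19, 8.99 and 9.02 in wild-type testes (0.45 ± 0.15, adjusted p = 0.0141). Both calls were lost without animal 139 (adjusted p = 0.0964 for Kif5c and 0.0544 for Klc1) and without animal 149 (0.122 and 0.0549). With litter as a block Kif5c had 0.40 (adjusted p = 0.146) and Klc1 0.35 (adjusted p = 0.0591), and within litter 1 the adjusted p was 0.213 for Kif5c and 0.126 for Klc1. Kif5a (0.40, adjusted p = 0.0945) and Klc4 (-0.06, adjusted p = 0.667) did not pass. Kif16b, an early endosome motor, was the 1 cargo gene called lower, with 6.19 to 6.64 in knockout and 6.65 to 7.10 in wild-type testes (-0.42 ± 0.18, adjusted p = 0.0488). That call was lost without animal 139, 140, 152, 149 or 157 (adjusted p = 0.0632 to 0.219), and with litter as a block (-0.32, adjusted p = 0.19). Kif13a, Kif13b, Kif1b and Kif1c had changes of 0.11 to 0.23 and did not pass.

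Markers of Sertoli cells and spermatogonia were higher in the same comparison as these cargo genes. Of 7 measured Sertoli cell markers (9 listed) 6 were called higher, with a summed log2 level of 15.0 to 15.2 in knockout and 14.3 to 14.7 in wild-type testes. Of 7 measured spermatogonial markers (8 listed) 6 were called higher, with sums of 11.99 to 12.4 in knockout and 11.3 to 11.6 in wild-type testes. Some of these markers lay near background at 20 dpp. The spermatogonial marker Dmrt1 was detected on 0 of 6 knockout and 0 of 6 wild-type arrays. Nanos3 and the Sertoli marker Gata4 were each detected on 2 of 6 knockout and 0 of 6 wild-type arrays. Of 4 measured markers each, 2 Leydig cell markers and 2 of macrophages and blood were called higher, and none of peritubular cells was called. Of all genes 39.4% were called higher in this comparison, and the counts of 2 of 4 lay near that share. Their part in the higher cargo genes was not tested.

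**Figure D3:**
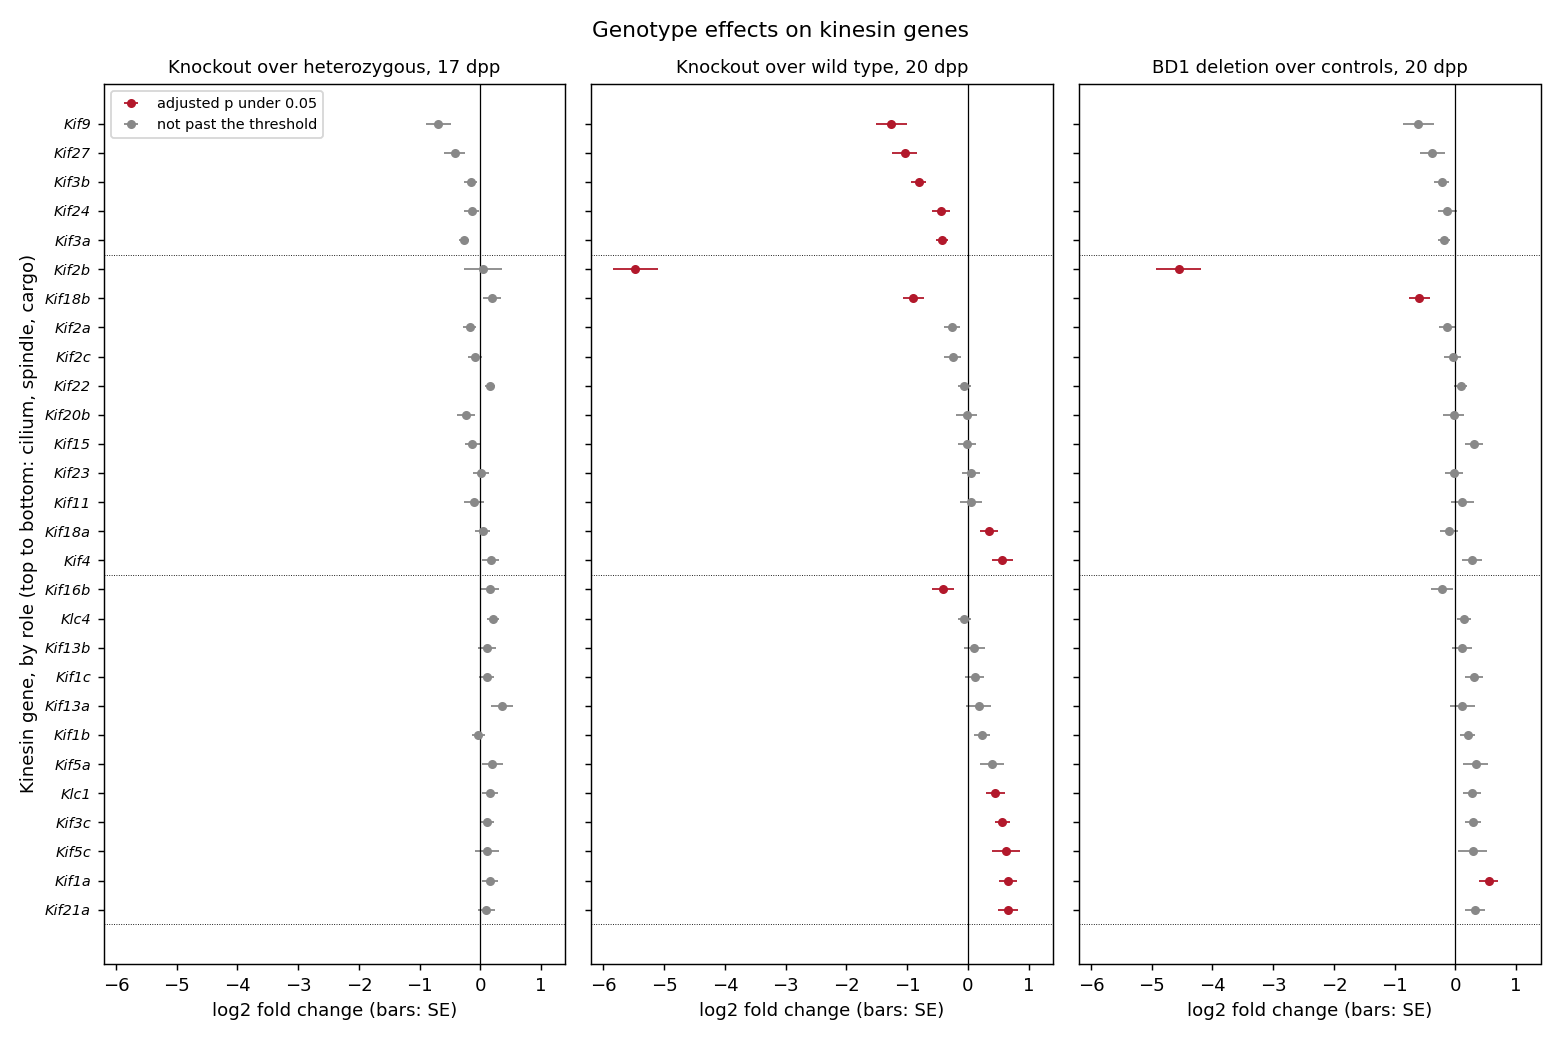
Log2 fold change with its SE (bars) of the 28 kinesin genes in the knockout over heterozygous testes at 17 dpp, the knockout over wild type at 20 dpp and the BD1 deletion over its controls at 20 dpp; red marks an adjusted p under 0.05. The counts in red are 0, 15 and 3, and Kif2b, at background in both mutants at 20 dpp, has the lowest values, -5.48 and -4.56, which are fitted and not bounds.

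Probes of the same gene did not always agree. All 3 Kif18b probes were called lower with either allele at 20 dpp, and both Kif9 probes were called lower in the knockout. Kif3b had 2 of 3 probes lower and Kif4 had 2 of 3 higher. The Kif3a probe that stands for the gene changed by -0.43, while its other probe had 0.21 (adjusted p = 0.262), and the mean of both was not called (-0.11, adjusted p = 0.385). For Klc1, 1 of 5 probes was called, the others had 0.02 to 0.39, and the mean of its probes was not called (0.22, adjusted p = 0.084). Kif27 and Kif1a had 1 of 2 probes called, with -0.37 and 0.17 for the others. The Kif1c probe that stands for the gene had 0.11, while its other probe was called higher (0.69, adjusted p = 0.041). That other probe was detected on 3 of 6 knockout and 1 of 6 wild-type arrays, so its value lies near background. Kif1b, whose isoforms carry mitochondria or synaptic vesicle precursors, had 7 measured probes with changes between -0.68 and 0.53. Of these, 2 were called higher (0.45 and 0.49) and 1 lower (-0.68, adjusted p = 0.00154), and the lower one was also called lower in the BD1 deletion (-0.53, adjusted p = 0.043). Which transcripts these probes match was not analysed here.

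**Figure D4:**
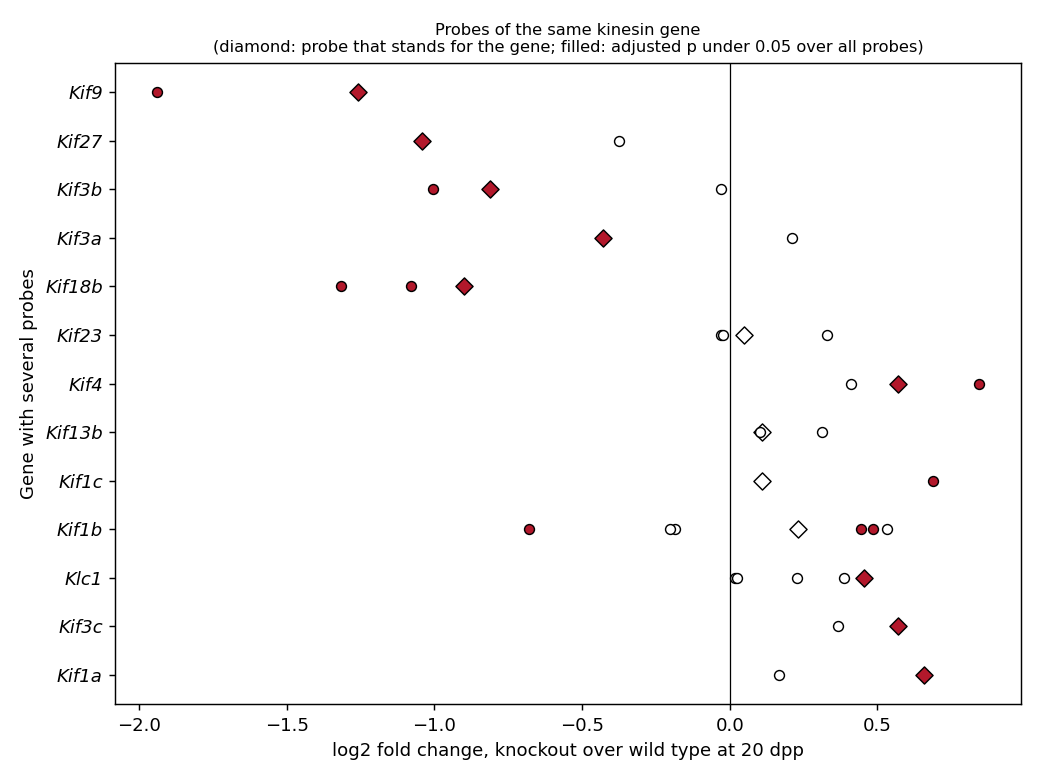
Log2 fold change of every measured probe (points) of the kinesin genes with more than 1 probe, for the 20 dpp knockout over wild type; diamonds mark the probe that stands for the gene and filled points an adjusted p under 0.05 over all probes. All 3 Kif18b probes lie below 0, and the 7 Kif1b probes lie on both sides of 0.

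At 17 dpp no kinesin gene was called in knockout against heterozygous testes (0 of 28, limma), where 1.34% of all genes were called, 0.199% higher and 1.14% lower, and 4 had an unadjusted p under 0.05 (Kif27, Kif3a, Kif9 and Klc4). The 5 cilium genes had differences between -0.69 and -0.15, with Kif3a at -0.28 ± 0.081 (adjusted p = 0.0914) and Kif27 at -0.42 ± 0.18 (adjusted p = 0.246). Without overlap between the animals of both groups were Kif13a and Klc4, 2 of the 28, where 2.95% of all genes did not overlap. Kif13a was detected on all 6 arrays only of the 17 dpp knockout, in which it was high, so its difference is a description. Knockout and heterozygous animals came from the same litters, 7, 8 and 9. Within each of them every knockout animal lay below every heterozygous animal for Kif9, Kif27, Kif3a and Kif24, and for the spindle gene Kif2a. The share of all genes with this pattern was not counted. The differences in litters 7, 8 and 9 were -0.47, -0.96 and -1.29 for Kif9 and -0.37, -0.62 and -0.54 for Kif27. With litter as a block both genes were called lower, Kif9 at -0.91 (adjusted p = 7.96e-04) and Kif27 at -0.52 (adjusted p = 0.00213). The share of all genes called in that fit is not given here, and the 1.34% above belongs to the fit without litter. Without animal 73 or without animal 121, 1 gene, Kif9, was called lower.

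The difference between the knockout effects at both ages was tested directly, as the 20 dpp effect minus the 17 dpp effect. It was called for 3 of 28 genes (10.7%), where 23.3% of all genes were called, 12.4% higher and 11% lower. Kif18b differed by -1.09 ± 0.22 (adjusted p = 0.00137) and Kif3b by -0.65 ± 0.16 (adjusted p = 0.00677). The other call was Kif2b, which is a description only, since it was detected on no array of 3 of the 4 groups and was measured through the group in which it was high. Age and the genotype of the controls cannot be told apart in this difference, since 17 dpp controls were heterozygous and 20 dpp controls wild type. The count was 7 without animal 122, 5 without animal 75 and 6 without animal 152.

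In the BD1 deletion at 20 dpp, 3 of 28 kinesin genes were called (10.7%), where 9.63% of all genes were (3.23% higher and 6.4% lower), so the share lay near that of all genes. Kif2b and Kif18b were lower and Kif1a was higher, and these 3 were also called in the knockout. Kif18b had 8.57, 8.43 and 8.71 in deletion testes, against 9.28, 8.51, 9.33 and 9.52 in control testes, where animal 191 (8.51) overlapped with the deletion (-0.59 ± 0.17, adjusted p = 0.029). Kif1a had 9.65, 9.61 and 9.31 in deletion testes, against 8.93, 9.23, 9.02 and 8.74 in control testes, with no overlap (0.55 ± 0.15, adjusted p = 0.0225). Its other probe had -0.03 (adjusted p = 0.931), and with the mean of both probes the call was lost (0.26, adjusted p = 0.247). With only heterozygous controls the calls of Kif18b (-0.33, adjusted p = 0.575) and Kif1a (adjusted p = 0.337) were lost. The number of calls was 6 without animal 191, and 1, Kif2b, without animal 193, 197, 219 or 196. Kif18b was also not called without animal 195 (adjusted p = 0.0878).

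The cilium genes passed the threshold in 0 of 5 cases in the BD1 deletion, with differences between -0.61 and -0.13. Kif9 had 7.97, 8.04 and 8.16 in deletion testes, against 8.88, 8.34, 8.55 and 8.90 in control testes, which did not overlap (-0.61 ± 0.25, adjusted p = 0.11). Kif3b had 9.77, 9.96 and 10.06 in deletion testes, against 10.22, 9.86, 10.12 and 10.43 in control testes, which overlapped (-0.23 ± 0.12, adjusted p = 0.211). A second Kif3b probe, which does not stand for the gene, was called lower in the deletion (-0.47, limma adjusted p = 0.047 over all probes). The third was not (-0.08, adjusted p = 0.784). Each of litters 4, 5 and 6 held both groups. In each the deletion animal lay below its controls for Kif9, Kif27 and Kif3b, and for the spindle genes Kif2a and Kif2b. The share of all genes with this pattern was not counted. For Kif9 the differences in these litters were -0.36, -0.69 and -0.72. With litter as a block Kif9 (-0.60, adjusted p = 0.0295) and Kif27 (-0.37, adjusted p = 0.0304) were called lower, which made 5 calls. The share of all genes called in that fit is not given here, so this count has no share to be set beside. Without overlap were 3 of the 28 genes, where 18.9% of all genes did not overlap. The round spermatid marker sum was 8.60 to 8.94 in deletion testes and 10.7 to 13.05 in control testes, and its part in these levels was not tested. Of 9 measured markers 8 were called lower, where 6.4% of all genes were. Apart from Spaca1 the markers were detected on 0 or 1 of 6 deletion arrays, so these calls are a description.

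The BD1 deletion and the knockout at 20 dpp share no animals. Their differences had the same sign in 23 of 28 kinesin genes (82.1%), where 86.3% of all genes did. The test of the difference of both effects called 0 of 28 genes (limma), where 1.25% of all genes were called (1.09% higher and 0.156% lower), and 3 had an unadjusted p under 0.05 (Kif18a, Kif27 and Kif3b). The lowest adjusted p was that of Kif3b (0.59 ± 0.17, adjusted p = 0.117), followed by Kif27 (0.67 ± 0.30, adjusted p = 0.293). Side by side, the cilium genes had -0.61 in the BD1 deletion and -1.26 in the knockout for Kif9, -0.38 and -1.04 for Kif27, -0.23 and -0.81 for Kif3b, -0.19 and -0.43 for Kif3a, and -0.13 and -0.44 for Kif24. Over the 27 genes other than Kif2b both sets of changes had a Pearson r of 0.908, and over all 11529 genes one of 0.889, given as a description of genes that share these libraries.

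Wild-type testes at 20 dpp were compared with heterozygous testes at 17 dpp, an age difference that carries the difference in control genotype and litter, which cannot be told apart from it. This comparison called 20 of 28 kinesin genes (71.4%), 9 higher and 11 lower at 20 dpp, where 71.4% of all genes were called, 25.9% higher and 45.5% lower. Without overlap were 18 of the 28, where 64.7% of all genes did not overlap. All 5 cilium genes were higher, by 0.60 to 1.36, and 8 of 12 cargo genes lower. Among those 8, Kif5a was measured only through the 17 dpp groups, in which it was high, with 1 of 6 wild-type arrays detecting it. Kif27 had 9.85 to 9.89 at 20 dpp, against a lowest of 8.18, a median of 8.75 and a highest of 8.91 at 17 dpp (1.23 ± 0.19, adjusted p = 1.13e-05). Kif1a had 9.16 to 9.36 at 20 dpp, against a lowest of 10.09, a median of 10.23 and a highest of 10.57 at 17 dpp (-1.07 ± 0.14, adjusted p = 1.22e-06). Kif4 had 7.67 to 8.21 at 20 dpp, against 8.73, 8.98 and 9.39 as lowest, median and highest at 17 dpp (-1.03 ± 0.15, adjusted p = 6.43e-06). Kif2b was at least 23.4-fold higher at 20 dpp. The Sertoli markers were lower in all 7 measured cases and the round spermatid markers higher in all 9. Among the Sertoli markers Gata4 was detected on 5 of 6 heterozygous and 0 of 6 wild-type arrays. Apart from Spaca1, the round spermatid markers were detected on 0 or 1 of 6 heterozygous arrays. They were measured mainly through the 20 dpp controls, in which they were high, so their calls are a description.

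Knockout testes at 20 dpp were also compared with heterozygous testes at 17 dpp. The round spermatid marker sum was 8.64 to 8.80 in these knockout testes and 8.51 to 8.87 in these heterozygous testes, with Spaca1 detected on 6 of 6 arrays of each group and Acrv1, Spaca3, Prm1, Tex36 and Catsper3 on none. Of 28 genes 2 were called (7.14%), where 11.4% of all genes were, 5.9% higher and 5.46% lower. Without overlap was 1 of the 28, where 9.5% of all genes did not overlap. Kif1a was lower, with 9.59 to 10.24 in the knockout against 10.09 to 10.57 in heterozygous testes (-0.41 ± 0.13, adjusted p = 0.0399). Kif4 was lower likewise, with 8.43 to 8.78 in the knockout against 8.73 to 9.39 in heterozygous testes (-0.46 ± 0.14, adjusted p = 0.0381). The 5 cilium genes differed by 0.05 to 0.25, none past the threshold, and a p above it does not show that the levels were alike. The count was 0 without animal 121, 126, 131, 148 or 152, 1 without animal 116 or 140, and 5 without animal 139.

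The control groups of both lines at 20 dpp were also set against each other. Kif18a had 8.33, 8.70, 8.38 and 8.41 in BD1 controls, against 7.71, 7.79 and 7.69 in wild type of the knockout line (0.73 ± 0.15, adjusted p = 0.00903), and was the 1 of 28 genes called (3.57%), where 1.71% of all genes were, 1.05% higher and 0.659% lower. Without overlap were 6 of the 28 genes, where 12.9% of all genes did not overlap. It was called neither in the BD1 deletion (-0.10 ± 0.15) nor between the effects of both alleles (adjusted p = 0.303). The count was 0 without animal 146 or 157, and 2 without animal 191, 195 or 196.

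Of the 7 kinesin genes not measured, Kif12, Kif20a, Kif21b and Kif7 were detected on 0 of 36 arrays, Kif26a on 3 arrays and Kif5b on 6. Kif17, a kinesin-2 motor that in mouse spermatids moves a coactivator of CREM, lay just outside the rule, with its best probe on 5 of 6 wild-type and 5 of 6 BD1 control arrays and on 0 in every other group. Kif17 had 5.03, 4.49, 4.69 and 4.50 in the knockout at 20 dpp, against 5.85, 5.86 and 6.50 in wild type. It had 4.75, 4.91 and 4.68 in the BD1 deletion, against 5.46, 5.28, 5.81 and 6.04 in its controls. Kif2b met the rule in 2 groups, with 6 of 6 arrays of wild-type and of BD1 control testes.

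Genes that act with kinesins were described from lists chosen with earlier results of these data known. In the 20 dpp knockout, 8 of 18 measured subunits of the intraflagellar transport particle were called lower and 1 higher, where 20.7% of all genes were lower and 39.4% higher, with a median change of -0.25 where that of all genes was 0.24. Ift140, Ift22, Ift172 and Ift122 had changes of -1.19, -0.77, -0.77 and -0.69. In the BD1 deletion none of the 18 was called, where 9.63% of all genes were, with a median of -0.13 against 0.12 for all genes. Between 17 dpp and 20 dpp control testes 12 of the 18 were higher at 20 dpp and 1 was lower, where 25.9% of all genes were higher and 45.5% lower.

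Of 17 measured spindle midzone and cytokinesis partners, 8 were lower in the 20 dpp knockout and none was higher, against the same 20.7% and 39.4% of all genes, with a median of -0.27. The meiotic kinase Aurkc averaged 8.22 in knockout and 9.98 in wild-type testes (-1.76 ± 0.28, adjusted p = 3.19e-05), and Aurka, the kinase of spindle poles, 10.6 and 11.9 (-1.28 ± 0.20). Their partners Birc5 and Incenp changed by -0.56 and -0.58. Aurkc was the 1 of the 17 called in the BD1 deletion (-0.87 ± 0.28, adjusted p = 0.0497), where 9.63% of all genes were. None of these 17 was called at 17 dpp, where 1.34% of all genes were.

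Of 11 measured manchette and head-tail coupling genes, 7 were lower in the 20 dpp knockout and 1 higher (all genes 20.7% and 39.4%), with a median of -1.06. Spag4 and Sun5, of the nuclear envelope of spermatids, were lower, Spag4 with a difference of -3.08 and Sun5, detected on 0 of 6 knockout arrays, by at least 5.33-fold. Rimbp3 and Spag16 changed by -3.98 and -2.15. Spag4 and Sun5 were also lower in the BD1 deletion, Spag4 with a difference of -2.72 and Sun5, again on 0 of 6 deletion arrays, by at least 3.44-fold. At 17 dpp 2 of the 11 were called lower in the knockout, where 1.14% of all genes were. Spag16, detected on 4 of 6 knockout and 6 of 6 heterozygous arrays, differed by -1.87 (adjusted p = 0.0239). Rimbp3 was detected on 1 of 6 knockout and 5 of 6 heterozygous arrays, so its fitted value is not given as a size (adjusted p = 0.0487).

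Kinesin-1 cargo adaptors had 6 of 14 measured genes higher and 5 lower in the 20 dpp knockout, where 60.1% of all genes were called. Plekhm2, an adaptor of lysosomes, averaged 10.3 in knockout and 11.9 in wild-type testes (-1.52 ± 0.16, adjusted p = 1.15e-07), and was also lower in the BD1 deletion (-0.52 ± 0.16, adjusted p = 0.0425). Dtnb and Mapk8ip2 changed by -1.16 and -1.81, and Spag9 was higher by 0.51. Of 21 measured genes of cytoplasmic dynein, the motor that moves the other way, 7 were higher and 6 lower, a share near the 60.1% of all genes called, among them Dynlt3 (1.08), Dynlrb1 (0.70) and Bicd2 (0.61) higher and Dctn2 (-0.58) lower. In the BD1 deletion Ndel1 was higher (0.37) and Pafah1b1 lower (-0.44). Of the 5 measured kinesin-14 motors and cofactors, Kifc2 was the 1 called in the 20 dpp knockout, where it was higher (0.55 ± 0.15, adjusted p = 0.00423). None of these 5 was called in the BD1 deletion, where 9.63% of all genes were.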

How the data were processed

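Whole testis RNA of 24 animals was measured on 36 arrays. The authors deposited probe intensity on a linear scale, from GenomeStudio 2011.1 according to the submitters' processing notes. No source used here says whether background had been subtracted. The deposited file also holds a detection p-value per probe. A deposited matrix of processed intensity, with medians of 133.8 to 133.9 and no stated scaling, was an alternative only. Here, signals were corrected for background, quantile-normalized and log2-transformed by the neqc function of limma 3.58.1 (offset 16; R 4.3.3), and arrays of an animal were averaged. The 21190 probes detected (p under 0.01) on all arrays of at least 3 animals were kept, and each gene took its probe with the highest mean. Symbols came from the platform annotation, updated through RefSeq (GRCm38.p6) for 34807 probes; 34885 probes had 1 symbol, 18 several and 10378 none. A linear model over all 6 groups with an intensity trend gave all comparisons. Per animal values are given for up to 6 called genes each way per genotype comparison and the 5 genes with the widest range of group means, and up to 4 called genes are named per list. Arrays with the same mouse number, litter and testis weight were counted as 1 animal. The members, lists and roles were chosen with earlier results of these data known. The test was checked on simulated data. Alternatives covered background, scaling, offset, filter, probe choice, centring, litter, replicate number, controls and leaving out each animal.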

Additional observations from a re-analysis of the deposited data

Results flagged for a closer look

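Of 112 combinations of kinesin gene and group with 4 to 10 animals, 8 had 1 animal far from the others by Dixon's test, and chance gives about 1 in 20. Levels are normalized log2 signals. In the 20 dpp knockout Kif11 was low in animal 140 (7.96, next 8.34) and Kif18b was low in animal 139 (8.29, next 8.46). In the 17 dpp knockout Kif13a was high in animal 122 (6.36, next 6.07), and Kif2b was high in animal 129 (4.96, next 4.69) at a level not above background. In heterozygous testes at 17 dpp animal 116 was low for Kif13a (5.24, next 5.78) and for Kif18b (8.03, next 8.38). Among the BD1 controls animal 191, which is BD1+/-, was high for Kif3c (7.92, next 7.50) and Kif4 (8.13, next 7.77).

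For 3 genes the knockout effect at 20 dpp differed from that at 17 dpp in the test of the difference. The differences were -1.09 ± 0.22 for Kif18b (adjusted p = 0.00137) and -0.65 ± 0.16 for Kif3b (adjusted p = 0.00677). For Kif2b the fit gave -5.52, which is neither a measured size nor a bound: it was detected on 0 of 6 arrays in 3 of the 4 groups and entered only through the wild type at 20 dpp and the BD1 controls, where it was high.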

How the results depend on the processing

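Of the 15 kinesin genes called in the 20 dpp knockout, Kif2b, Kif9, Kif27, Kif18b, Kif3b, Kif1a, Kif21a and Kif3c kept their call under all 23 alternatives run for them, and no called direction reversed. Kif18a lost it under 14, Kif16b under 10, Kif5c and Klc1 under 6 each, Kif24 under 4, Kif4 under 3 and Kif3a under 1 (mean of probes, -0.11, adjusted p = 0.385). The count was 9 within litter 1. Splitting arrays by brightness, chosen after seeing the data, gave 16 in the brighter and 12 in the dimmer arrays. The median of all genes in that comparison was 0.24, 0.14 without background correction, 0.28 with median scaling and 0.14 in the deposited matrix. The BD1 deletion gave 5 calls with litter as a block, 1 with only the groups of the comparison and 1 with heterozygous controls only. Knockout at 17 dpp gave 2 with litter as a block and 2 with animal as a random block. The difference of knockout effects gave 5 with the mean of probes and 5 with animal as a random block. The 20 dpp knockout against 17 dpp heterozygous testes gave 1 with median scaling, 0 without a filter and 0 with only its groups. The control groups gave 2 with an offset of 50, the filter by group, the mean of probes or the random block, and 0 with only their groups.

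Leaving out 1 animal at a time gave 0 to 1 calls at 17 dpp, 10 to 16 in the 20 dpp knockout, 1 to 6 in the BD1 deletion, 0 to 1 for the difference of both alleles, 3 to 7 for the difference of knockout effects, 17 to 20 between ages in controls, 0 to 5 for the knockout against 17 dpp testes and 0 to 2 between control groups. Replicate numbers of the labels did not pair the arrays (r of same-numbered deviations -0.441 to 0.656, median 0.107, 90 pairs). With the replicate block the counts were 3 at 17 dpp, 17 in the 20 dpp knockout, 13 in the BD1 deletion, 1 and 7 for the differences of alleles and of ages, 3 between controls and 6 for the knockout against 17 dpp testes. The cause of these shifts was not tested.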
